A study of Mus musculus with 6 samples.

Results

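The matrix metalloproteases (Mmp), the proteases of the Adamts family and the tissue inhibitors of metalloproteases (Timp) were examined in the livers of STAM mice, a model of diabetic nonalcoholic steatohepatitis. Genes were taken by symbol from the probe sets annotated to exactly 1 gene, and each gene was represented by its brightest probe set. This gave 44 genes, of which 22 were Mmp, 18 Adamts and 4 Timp genes, out of 22087 genes with such a probe set. Among the mouse genes whose symbols fit, Mmp15 and Adamts2 were not listed in the probe annotation used and were not analysed here. The study's own supplement does list a probe set for Adamts2, so that gene was measured on these arrays. Statements on the families therefore cover the 44 genes only.

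All mice were male C57BL/6J that had been injected subcutaneously with 200 μg of streptozotocin, which destroys pancreatic beta cells, at 2 days of age and were fed a diet with 60 kcal% fat from 4 weeks of age. From 6 to 12 weeks of age, the telmisartan group received the angiotensin II receptor blocker telmisartan orally at 5 mg/kg/day, dissolved in 0.5% carboxymethyl cellulose. The other group is labelled only as vehicle. Liver RNA from 3 mice per group, out of 7 per group, was hybridized to Affymetrix Mouse Gene 2.0 ST arrays, 1 array per mouse. No healthy mice were included in the series, so the levels below are those of diseased livers, and whole liver tissue cannot tell fewer cells of a type from less RNA per cell.

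Mmp enzymes are zinc-dependent proteases that are made as inactive proforms and cut collagens, laminins, elastin and other matrix proteins outside the cell. Adamts enzymes are related secreted proteases with thrombospondin repeats, which cut proteoglycans, process procollagens or, in the case of Adamts13, cut von Willebrand factor. Timp proteins bind the active site of Mmp enzymes, and Timp3 also inhibits several Adam and Adamts enzymes. In scarring liver the hepatic stellate cells and macrophages are the known main sources of these proteases, and Timp1 is the inhibitor best known to be induced there.

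Several Mmp genes are known targets of AP-1, the Jun and Fos transcription factor, through an element with the letters TGAGTCA or TGACTCA. The search here allowed any middle base (TGANTCA), a pattern that reads the same on both strands. On chromosome 9, 10 protein-coding genes lie next to one another with no other protein-coding gene among them, and all are members (Mmp7, Mmp20, Mmp27, Mmp8, Mmp10, Mmp1a, Mmp3, Mmp1b, Mmp12 and Mmp13). RefSeq promoter windows (GRCm38.p6) of 300 bases, from 250 before to 50 after an annotated start, were found for 30 of the 44 genes, as 33 windows. The pattern TGANTCA was present in 8 of these windows, or 24.2%, against 7.81% of all 32851 windows. Both shares include matches with an A or T in the middle. Each of the 8 belonged to a gene of the chromosome 9 cluster, while the windows of Mmp8, Mmp27, Mmp14, Timp1, Timp2 and Timp3 did not hold these letters. The element of Mmp12 lay before a downstream start within that gene, and the window at the first annotated start of Mmp12 did not hold the letters. Mmp7 also had a further window without them. The 8 matches are shown in capitals within their flanks. That of Mmp20 is TGAATCA, which fits only the wider pattern. Whether AP-1 binds any of the 8 in these livers was not tested.
Mmp1a (chr9:7464051-7464091, + strand, element 73 bases before the start): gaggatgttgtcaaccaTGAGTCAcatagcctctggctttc
Mmp1b (chr9:7388096-7388136, - strand, 93 bases before): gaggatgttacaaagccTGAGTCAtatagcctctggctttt
Mmp3 (chr9:7445759-7445799, + strand, 46 bases before): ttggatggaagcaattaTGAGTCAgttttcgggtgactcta
Mmp7 (chr9:7692010-7692050, + strand, 63 bases before): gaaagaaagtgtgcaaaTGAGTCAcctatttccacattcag
Mmp10 (chr9:7502262-7502302, + strand, 63 bases before): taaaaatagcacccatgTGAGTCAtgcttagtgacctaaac
Mmp12 (chr9:7347313-7347353, + strand, 44 bases before): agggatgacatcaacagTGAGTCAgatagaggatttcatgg
Mmp13 (chr9:7272462-7272502, + strand, 35 bases before): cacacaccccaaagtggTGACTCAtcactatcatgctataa
Mmp20 (chr9:7628119-7628159, + strand, 95 bases before): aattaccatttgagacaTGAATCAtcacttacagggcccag

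A level here is the log2 of the deposited array intensity, and a difference is the telmisartan mean minus the vehicle mean on that scale. Because the brightness of a probe set depends on its probes, levels were not ranked between genes. A level was instead set against 1371 olfactory and vomeronasal receptor genes, which liver is not known to use. Their 95th percentile, a mean of 2.81 over the 6 arrays, served as the background line, and their 99th percentile of 4.14 as a higher line. Of all genes, 58.4% lay above the background line, and the 10 hepatocyte markers listed, among them Alb and Hnf4a, all did. The median log2 intensity of the arrays ranged from 2.85 to 2.93, and pairs of arrays had a Pearson correlation across probe sets of at least 0.984.

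In these livers, 22 of the 44 genes lay above the background line. Only Mmp14, Mmp19, Timp2, Timp3 and Adamts1 were also above the higher line. The other 17 above the background line were Mmp2, Mmp7, Mmp9, Mmp10, Mmp12, Mmp17, Mmp23, Mmp24, Mmp28, Adamts6, Adamts7, Adamts9, Adamts10, Adamts12, Adamts13, Adamts14 and Adamts17. None of the 4 genes grouped here as interstitial collagenases (Mmp1a, Mmp1b, Mmp8 and Mmp13) reached the background line, and neither did Timp1 and Timp4. Mmp14, which was above the higher line, also encodes a collagenase. The remaining genes at or below the line were Mmp3, Mmp11, Mmp16, Mmp20, Mmp21, Mmp25 and Mmp27 together with Adamts3, Adamts4, Adamts5, Adamts8, Adamts15, Adamts16, Adamts18, Adamts19 and Adamts20. In the chromosome 9 cluster, 3 of 10 genes (Mmp7, Mmp10 and Mmp12) were above the line, all below the higher line.

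**Figure D1:**
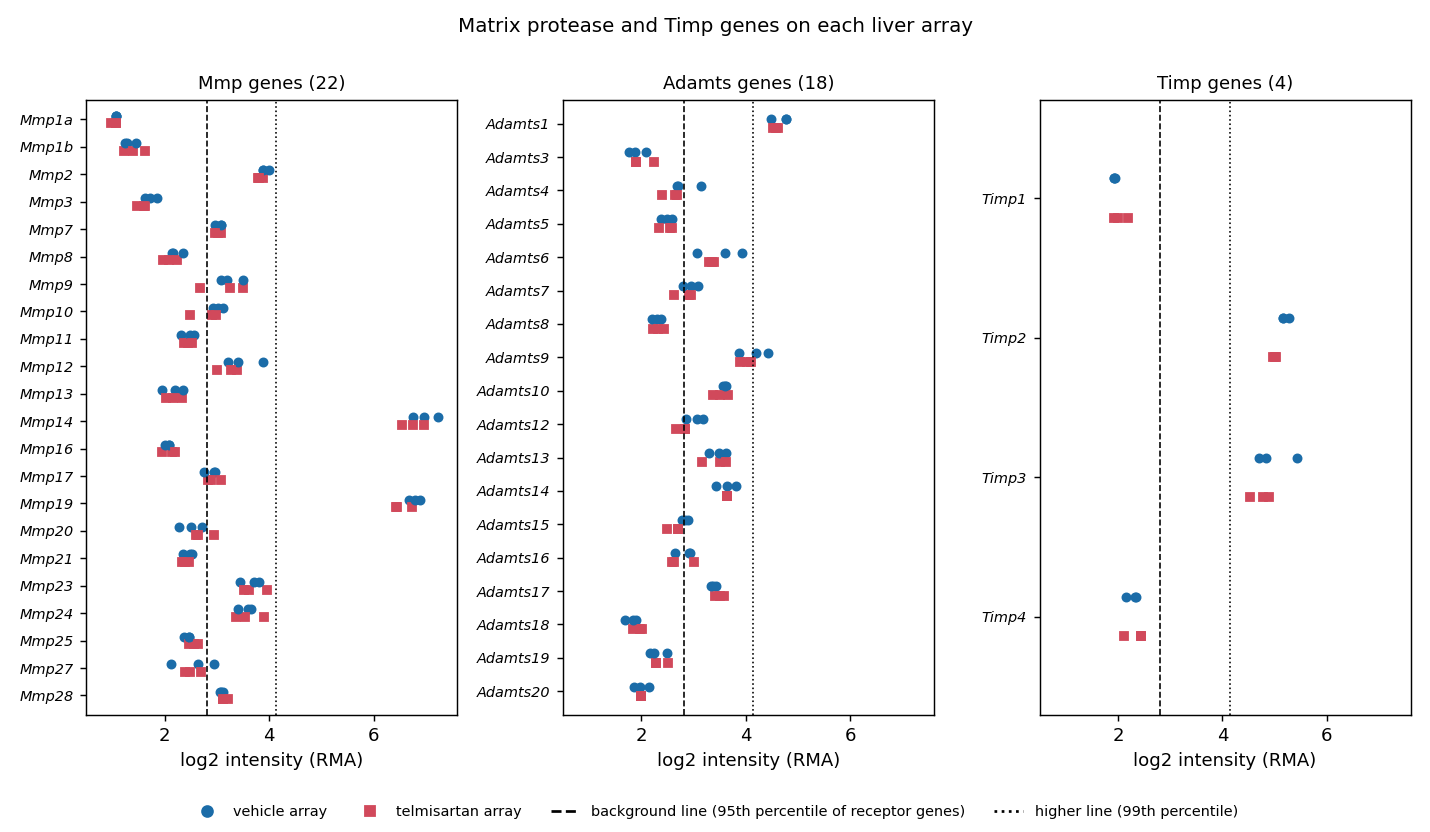
Log2 intensity of each of the 44 genes on the 3 vehicle arrays (blue circles) and the 3 telmisartan arrays (red squares), by family, with the background line at 2.81 (dashed) and the higher line at 4.14 (dotted). Mmp14, Mmp19, Timp2 and Timp3 stand to the right of both lines on every array, and so does Adamts1, while Timp1 stands to the left of both.

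The comparison asked how treatment with telmisartan changed these genes. With limma, no member passed the thresholds of the study (1.2-fold or more, and p below 0.05 before adjustment). Over all genes, 3.08% were called higher and 3.5% lower at these thresholds, and 7.79% of the 12902 genes above the background line were called in either direction. The count of members with an unadjusted limma p under 0.05 was also 0, against 7.03% of all genes, and the lowest was the p of 0.0669 of Adamts12 (limma adjusted p = 0.721). With the methods' t-test 0 members were called, against 3.22% of all genes. In that test 1 member, Timp2, had an unadjusted p under 0.05, as did 1274 of all 22087 genes. No gene of the whole table had a limma adjusted p under 0.05, the lowest being 0.0725. Differences of the members ranged from -0.28 for Mmp12 to 0.22 for Mmp20.

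The size of difference that the arrays leave possible was bounded by the intervals. The 95% interval of the difference lay within 1.5-fold in both directions for 38 of the 44 genes, and within 1.2-fold for 3 of them, Mmp1a, Mmp7 and Adamts20. For each of these 3, several arrays held an equal value, which lowers the spread that the interval is computed from. The intervals of Adamts4, Adamts6, Mmp9, Mmp12, Mmp14 and Timp3 reached further, to a level 1.51 to 1.62 times lower with telmisartan. For a gene near the background line a narrow interval bounds the measured intensity, which need not follow the RNA.

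Above the background line, 16 of 22 genes had a lower mean with telmisartan, with a median difference of -0.11, whereas among all 12902 genes above the line 54.4% had a lower mean, with a median of -0.02. At or below the line, 10 of 22 members had a lower mean, with a median of 0.01. Over all 44 genes the median was -0.03, and over all 22087 genes it was -0.00059. These medians are descriptions, and the members were not tested as a group.

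**Figure D2:**
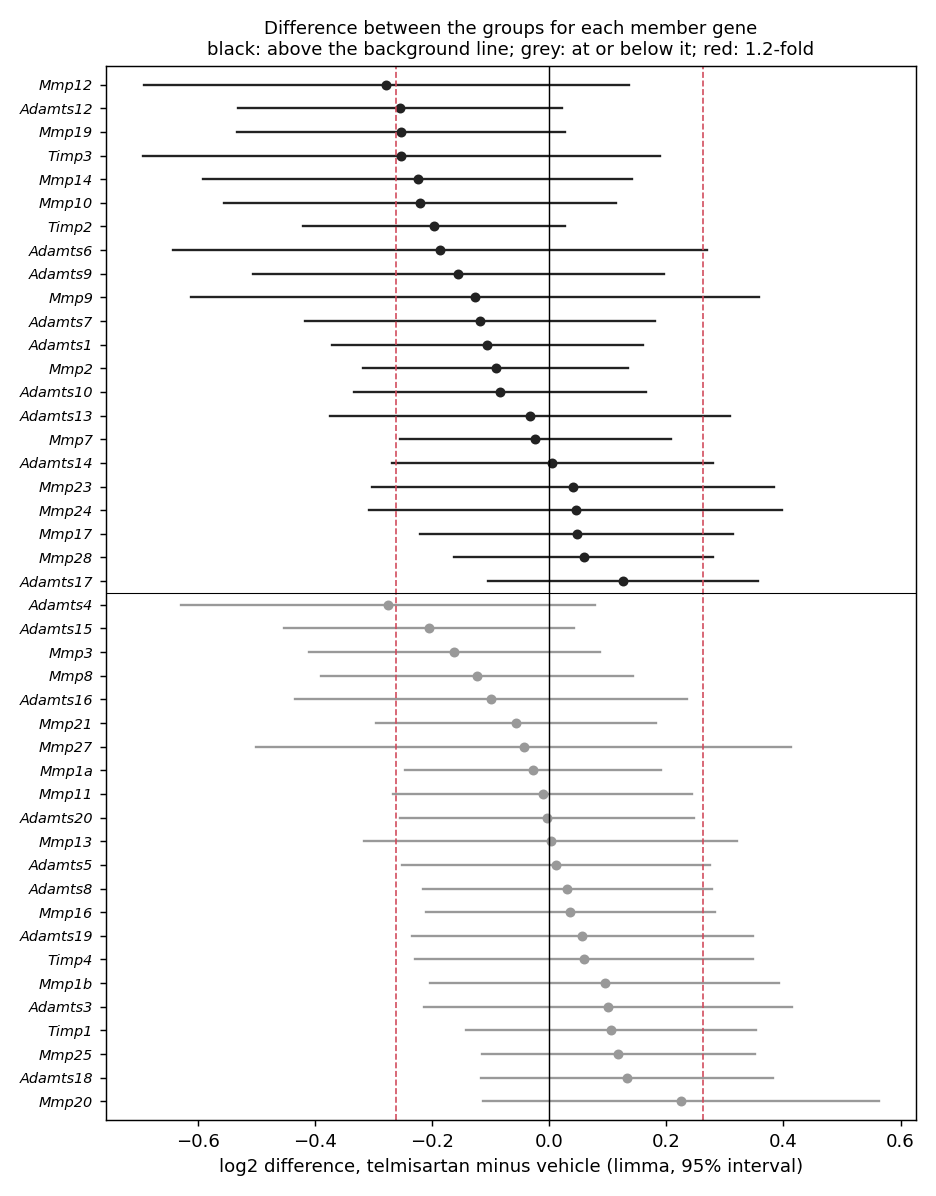
Difference between the group means of each gene on the log2 scale (points) with the 95% interval of limma (lines), telmisartan minus vehicle, n = 3 arrays each. Black genes lie above the background line and grey genes at or below it; every interval holds 0, and only Mmp12 and Adamts4 have points beyond the 1.2-fold lines (dashed red).

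Timp2 was the only one of the 4 Timp genes whose groups did not overlap. It inhibits Mmp enzymes and also bridges the proform of Mmp2 to Mmp14, which activates it. Its levels were 5.27, 5.15 and 5.16 with vehicle and 5.01, 5.02 and 4.96 with telmisartan. The 3 telmisartan values were all lower than the 3 vehicle values (p = 0.1 in an exact 2-sided permutation test, which cannot give less with 3 against 3 arrays). The means were 4.99 ± 0.03 (SD, n = 3 mice) and 5.19 ± 0.06 (SD, n = 3), a difference of -0.20 (standard error 0.10, limma adjusted p = 0.721), which is under 1.2-fold. Leaving out any 1 array gave -0.22 to -0.16.

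Timp3, the inhibitor that is bound to the matrix, was at 4.71, 4.83 and 5.42 with vehicle and at 4.77, 4.53 and 4.90 with telmisartan. The groups overlapped, and vehicle 3 was the highest of all arrays. Its difference was -0.25 (standard error 0.19), and it was -0.04 without vehicle 3. Timp1 was at 1.92, 1.92 and 1.95 with vehicle and at 1.92, 2.00 and 2.18 with telmisartan. All of these values are below the background line, so that this probe set gives no measure of how much Timp1 RNA either group held. Timp4 was also below the line on every array, with a difference of 0.06.

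Among the membrane-type enzymes, Mmp14, a collagenase anchored in the cell membrane, was at 6.74, 6.96 and 7.24 with vehicle and at 6.75, 6.97 and 6.54 with telmisartan. Telmisartan 1 and 2 were within the vehicle range and telmisartan 3 was below it, and the difference of -0.23 (standard error 0.16, limma adjusted p = 0.793) was smaller than the SD of the vehicle arrays, 0.25. Mmp24, which spans the membrane, and Mmp17, which is held by a lipid anchor, had differences of 0.04 and 0.05. Mmp16 and Mmp25, of the same kinds, were below the background line.

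Mmp19, a secreted enzyme that cuts basement membrane proteins, is described because it was above the higher line and was picked after its values were seen. It was at 6.68, 6.89 and 6.80 with vehicle and at 6.73, 6.45 and 6.43 with telmisartan. Telmisartan 2 and 3 were below every vehicle array, while telmisartan 1 was within the vehicle range. The difference was -0.25 (standard error 0.12, unadjusted limma p of 0.0702). Without telmisartan 1 it was -0.35 and passed the thresholds of the study (unadjusted limma p of 0.0237). It passed in no other fit that omitted an array, and was -0.20 without telmisartan 3 or vehicle 2 (unadjusted limma p of 0.190 and 0.195).

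The gelatinases cut denatured collagen and collagen IV. Mmp2 was at 3.89, 3.89 and 3.99 with vehicle and at 3.89, 3.81 and 3.79 with telmisartan, a difference of -0.09 (standard error 0.10). Mmp9, a product of neutrophils and macrophages, was at 3.08, 3.20 and 3.51 against 3.50, 2.67 and 3.24. Telmisartan 2 was the lowest array for Mmp9, and the others overlapped between the groups. The telmisartan arrays had an SD of 0.42 (n = 3) against 0.22 (n = 3). The difference of -0.13 became 0.11 without telmisartan 2.

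Mmp12, the elastase of macrophages, had the lowest difference of all members. It was at 3.21, 3.41 and 3.87 with vehicle and at 3.37, 3.01 and 3.27 with telmisartan. The groups overlapped, with vehicle 3 the highest array, and the difference was -0.28 (standard error 0.18, unadjusted limma p of 0.160). Without vehicle 1 it was -0.42 and passed the thresholds (unadjusted limma p of 0.0486), and without vehicle 3 it was -0.09. Mmp13, the main interstitial collagenase of rodents, was at 2.20, 1.95 and 2.36 against 2.34, 2.02 and 2.16, all below the background line, with a difference of 0.00 (standard error 0.14).
The stromelysins Mmp3, Mmp10 and Mmp11 and the matrilysin Mmp7 had differences between -0.22 and -0.01, none called. Mmp20, the enamelysin of teeth, was the highest at 0.22 and lay below the background line. Mmp21, Mmp23, Mmp27 and Mmp28 had differences of -0.06, 0.04, -0.04 and 0.06.

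**Figure D3:**
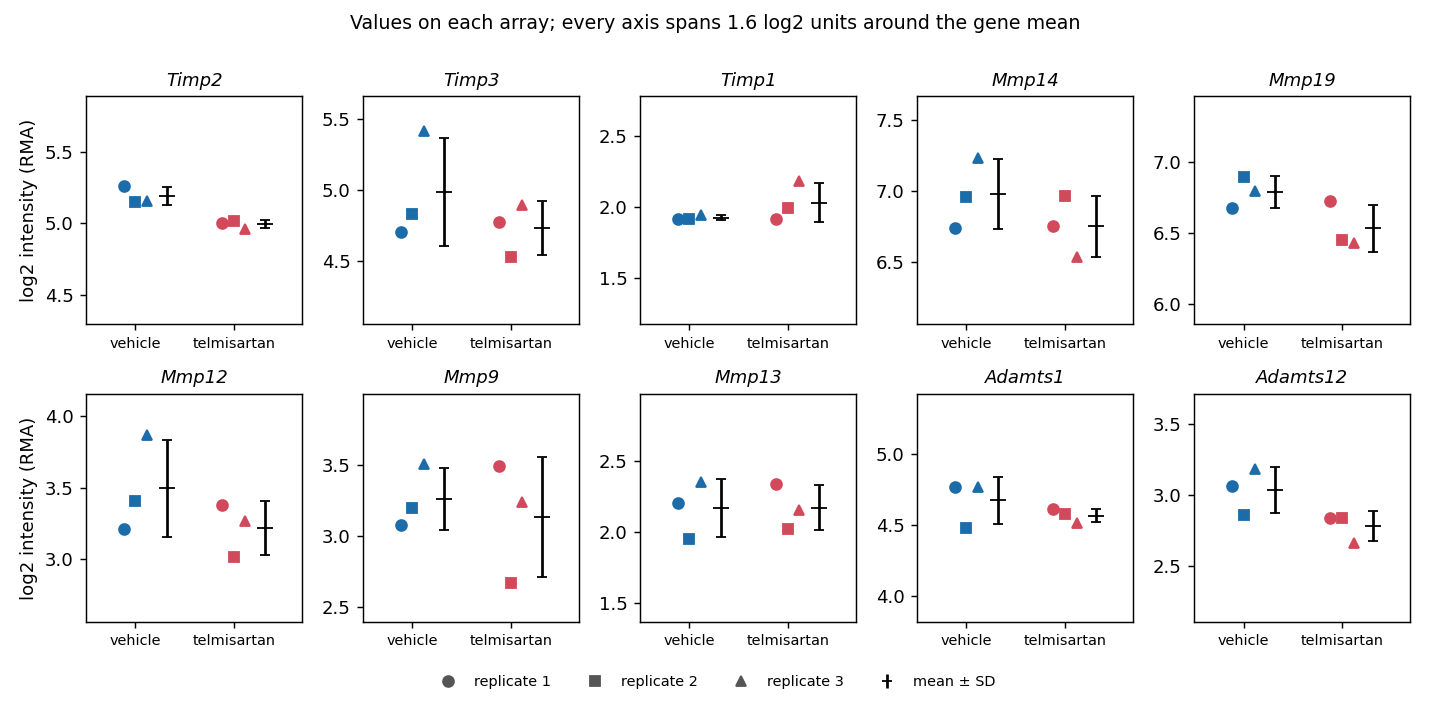
Log2 intensity of 10 genes on each array (symbols mark the replicate number), with the mean and SD of each group (n = 3) beside the points; every vertical axis spans the same number of log2 units. Only Timp2 and Adamts12 have groups that do not overlap. Vehicle 3 is the highest array for Timp3, Mmp14, Mmp12, Mmp9, Mmp13, Adamts1 and Adamts12, by a narrow margin for Mmp9 and Adamts1.

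Among the Adamts genes, the 7 that cut proteoglycans such as versican and aggrecan had differences from -0.28 for Adamts4 to 0.03 for Adamts8, none called. Adamts1, the only one of the 18 Adamts genes analysed that was above the higher line, was at 4.77, 4.48 and 4.77 with vehicle and at 4.61, 4.57 and 4.51 with telmisartan. The telmisartan values lay within the vehicle range, and the difference was -0.11 (standard error 0.12). Adamts9, a versican protease, had a difference of -0.16, and Adamts5, an aggrecanase, one of 0.01. Adamts15 was at 2.90, 2.83 and 2.77 against 2.70, 2.49 and 2.70, with the groups apart, but its mean was below the background line.

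Adamts12, which cuts cartilage oligomeric matrix protein as Adamts7 does, was at 3.06, 2.86 and 3.18 with vehicle and at 2.84, 2.84 and 2.66 with telmisartan. The groups were apart by a narrow margin (exact permutation test, p = 0.1, the smallest possible), and the difference was -0.26 (standard error 0.12). Without vehicle 2 it was -0.34 and passed the thresholds (unadjusted limma p of 0.0299). It passed in no other fit that omitted an array, and was -0.18 without vehicle 3 (unadjusted limma p of 0.205). The related Adamts7 had a difference of -0.12. In all, 3 of the 44 genes (Timp2, Adamts12 and Adamts15) had groups that did not overlap, each lower with telmisartan, against 12.4% of all genes in either direction.

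Adamts13, the protease of von Willebrand factor, which stellate cells of the liver are known to make, was at 3.63, 3.48 and 3.29 with vehicle and at 3.51, 3.16 and 3.62 with telmisartan. The difference of -0.03 (standard error 0.15) turned to 0.05 without vehicle 1 and to 0.10 without telmisartan 2. The procollagen N-proteinases Adamts3 and Adamts14 had differences of 0.10 and 0.01. Of the other 6 Adamts genes (Adamts6, Adamts10, Adamts16, Adamts17, Adamts18 and Adamts19), none was called. Adamts6 was lower by the most, at -0.19, and it passed the thresholds without vehicle 1, at -0.42 (unadjusted limma p of 0.0139). It passed in no other fit that omitted an array.

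The AP-1 subunits were measured on the same arrays. Jun was at 6.99, 6.97 and 6.16 with vehicle and at 5.42, 5.44 and 5.10 with telmisartan, with the groups apart. Its difference was -1.39 (standard error 0.22, limma p of 0.000222 before and 0.558 after adjustment). Jun was called lower by limma, by the methods' t-test and in each fit that omitted an array. Junb was higher with telmisartan by 0.34 (standard error 0.12, limma p of 0.0180 before and 0.695 after adjustment). That call was lost without vehicle 1 (limma p of 0.0546) or telmisartan 3 (limma p of 0.0521). Fos, Fosb, Fosl2 and Jund were not called. None of the 8 genes whose windows hold the letters TGANTCA was called, with differences from -0.28 for Mmp12 to 0.22 for Mmp20, which holds TGAATCA. Of the 8 genes, 3 were above the background line. A match of letters does not show that a factor binds there.

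Some other genes of matrix turnover passed the unadjusted thresholds. Of 59 listed genes that encode Adamts-like proteins, Adam proteases, the plasminogen system, further inhibitors and activators, tolloid proteases, cathepsins and matrix substrates, 56 had an annotated probe set, of which 8 were called lower and 1 higher with limma, against 3.5% lower and 3.08% higher of all genes, and the methods' t-test called 4 lower and 0 higher. None had a limma adjusted p under 0.05, and the list was not tested against the members. The lower count was 13 without vehicle 1 and 5 without vehicle 3 or telmisartan 3, and their median difference was -0.09. The list was written with earlier results of these data known.

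Reck, an inhibitor of Mmp enzymes that is anchored in the cell membrane and is no member of the Timp family, was lower with telmisartan. It was at 3.55, 3.33 and 3.63 with vehicle and at 3.04, 3.07 and 2.92 with telmisartan. Every telmisartan array was below every vehicle array, and the difference was -0.50 with a standard error of 0.12 (limma p of 0.00237 before and 0.695 after adjustment). It was called in each of the fits that omitted an array, and by the methods' t-test too, but not at a fold of 1.5. Its mean of 3.26 was above the background line and below the higher line. Of the 7 genes of its list, which holds further inhibitors, activators and clearance receptors, it was the only one called. Furin, which activates the membrane-type enzymes, had a difference of -0.0020, and Bsg, an inducer of Mmp genes, one of -0.15.

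In the plasminogen system, whose active enzyme plasmin cuts matrix and activates Mmp proforms, 1 of 6 genes analysed was lower, the tissue activator Plat at -0.50 (standard error 0.21). That call was lost without any 1 of vehicle 2, vehicle 3, telmisartan 2 and telmisartan 3 (p up to 0.161). Plg, plasminogen itself, and Plau, the urokinase, had differences of 0.10 and 0.17. Of the 7 Adam proteases, none was called. Of the 6 Adamts-like genes, Adamtsl5 was lower at -0.36, but the call did not survive the omission of vehicle 2 or 3 or of telmisartan 2 or 3 (p up to 0.123). Tll1, of the tolloid family that processes procollagen, was higher by 0.32 but lay below the background line, and it was not called once vehicle 2 or 3, or telmisartan 1 or 2, was omitted (p up to 0.132).

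The lysosomal cathepsins Ctsb and Ctsc were lower, both at -0.37 (standard errors 0.11 and 0.13), of 8 in the list. The call of Ctsc was lost without telmisartan 1 or telmisartan 3 (p up to 0.0713). Of 17 substrates of the proteases analysed, 3 were lower. Nid1, the basement membrane protein nidogen, was at 5.94, 6.11 and 6.10 with vehicle and at 5.54, 5.23 and 5.32 with telmisartan, a difference of -0.69 (standard error 0.12), and it was called when any 1 array was left out. The proteoglycans Bgn and Dcn had differences of -0.63 and -0.43, and Dcn was not called without vehicle 2, vehicle 3 or telmisartan 2 (p up to 0.0920). Vwf, the substrate of Adamts13, had a difference of 0.02, and Col1a1, a chain of the main fibrillar collagen, one of -0.23, neither called.

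Markers of liver cell types moved with the groups to different degrees. For comparison, limma called 3.5% of all genes lower, and 615 of the 12902 genes above the background line. The methods' t-test called 310 of those 12902 genes lower. Of 10 liver endothelial markers, 8 were lower, with a median of -0.49 and a mean level of 6.31 to 6.60 on the vehicle arrays and of 5.75 to 6.26 on the telmisartan arrays. The count of lower endothelial markers was 3 without vehicle 3, telmisartan 2 or telmisartan 3, and 2 with the methods' t-test. Of 12 stellate cell and fibroblast markers, 3 were lower (Lrat, Dcn and Lum), with a median of -0.20 and a mean level of 4.95 to 5.23 against 4.65 to 5.06. Of 10 Kupffer cell and macrophage markers, 3 were lower (Marco, Vsig4 and Csf1r), with a median of -0.20 and a mean level of 6.30 to 6.92 against 6.25 to 6.45. With the methods' t-test, 0 of the stellate cell and fibroblast markers and 1 of the macrophage markers (Csf1r) were called lower. Of 10 neutrophil markers, 0 were called and 2 were above the background line, with S100a8, Ly6g and Mpo below it. None of the 10 hepatocyte, 5 cholangiocyte and 7 lymphocyte markers analysed was called by limma or the methods' t-test, with medians of -0.03, 0.02 and -0.20. The part of these cells in the levels of the members was not tested.

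The members above the background line had a mean level of 3.84, 3.93 and 4.00 on the vehicle arrays and of 3.84, 3.76 and 3.84 on the telmisartan arrays. Vehicle 3 alone was the highest array for 9 of these 22 genes, or 40.9%, whereas it was the highest for 20.04% of all genes above the line. Vehicle 3 was also the highest vehicle array for the means of the endothelial, Kupffer cell and neutrophil markers. For the stellate cell and fibroblast markers vehicle 2 was the highest vehicle array. For the hepatocyte, cholangiocyte and lymphocyte markers vehicle 3 was the lowest of the vehicle arrays.

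**Figure D4:**
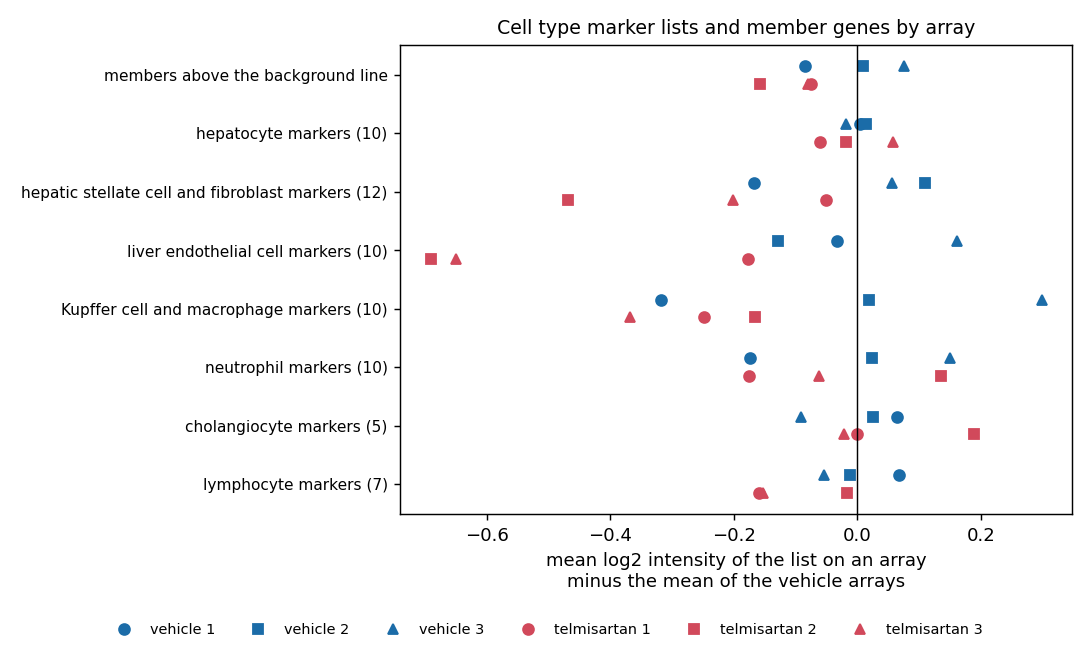
Mean log2 intensity of each cell type marker list and of the 22 members above the background line on each array, minus the mean of the 3 vehicle arrays (symbols mark the replicate number, blue vehicle, red telmisartan). Every telmisartan point of the endothelial markers (mean levels of 5.75 to 6.26) is below every vehicle point (6.31 to 6.60), while the points of the members overlap.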

How the data were processed

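Liver RNA of 6 mice was measured, 1 array each, and the number of arrays limits the precision. The deposited intensity values (31873 probe sets, 1.42 to 7834.8, linear) had been normalized by the authors with RMA, the robust multi-array average, whose version is not given in the sources used here. Their log2 was taken with no pseudocount and no further scaling. Of these probe sets, 23094 had exactly 1 symbol in the platform annotation, 1770 had several (among them 1 of Mmp24) and 7009 were not listed. Telmisartan was tested against vehicle by a 2-sided moderated test (limma 3.58.1, R 4.3.3) fitted to all 23094, with Benjamini-Hochberg adjustment. Called means 1.2-fold or more with p below 0.05 before adjustment, as in the study's methods. The code was tested on simulated data. The p-values set a difference against the spread between these mice. In limma the spread of each probe set is moderated towards that of all probe sets fitted.

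The members and gene lists were chosen with earlier results of these data known. Every member is named; values on every array are given for called members, for members above the background line with groups apart, and for Timp1, Timp2, Timp3, Mmp2, Mmp9, Mmp12, Mmp13, Mmp14, Adamts1 and Adamts13. The alternatives were the methods' t-test, the mean of a gene's probe sets, a filter on dim probe sets, quantile normalization, a trended variance, all probe sets in the fit, a fold of 1.5, the replicate number as a block, and each array left out. RefSeq symbols and promoter windows (GRCm38.p6) were matched by gene ID.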

Additional observations from a re-analysis of the deposited data

How the results depend on the processing

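No member was called higher or lower by limma under any alternative that kept all 6 arrays, nor by the methods' t-test. With 1 array left out, 0 to 2 members were called lower and 0 higher: 2 without vehicle 1 (Adamts6 and Mmp12), 1 without vehicle 2 (Adamts12) and 1 without telmisartan 1 (Mmp19). The members' median difference of -0.03 was -0.11 with the filter on dim probe sets, which leaves fewer genes, and -0.0644 to -0.0223 with 1 array left out. The difference of Mmp13, 0.0023, was -0.0180 after quantile normalization and -0.1075 to 0.0955 with 1 array left out, below 0 without vehicle 2 or telmisartan 1. That of Mmp9 was -0.308 to 0.106, above 0 without telmisartan 2, and that of Adamts13 was -0.129 to 0.1003, above 0 without vehicle 1 or telmisartan 2.

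Over all genes, 681 were higher and 772 lower with limma. The counts were 325 and 387 with the methods' t-test and 66 and 102 at a fold of 1.5, and 388 were higher with the filter on dim probe sets. With 1 array left out they were 576 to 767 and 580 to 974. The values for the other genes of matrix turnover were computed after seeing the data. Of these, 4 were lower with the methods' t-test, 2 at a fold of 1.5 and 5 to 13 with 1 array left out. The count of 1 higher was 0 with the methods' t-test, with the filter and at a fold of 1.5, and 0 to 2 with 1 array left out. Of the endothelial markers, 2 were lower with the methods' t-test, 4 at a fold of 1.5 and 3 to 8 with 1 array left out.

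The replicate numbers are shared between the groups in the labels only as numbers. Deviations from the group means of same-numbered arrays had correlations of 0.04, -0.02 and 0.03. With the replicate number as a block, 0 members were called, and 727 genes were higher and 762 lower. The causes of these shifts were not tested. Signals near the background line, where 22 of the 44 members lie, limit what a difference can show.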

Other observations

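Equal values on several arrays were common among the members. For 14 of the 44 genes, or 31.8%, at least 2 of the 6 arrays held the same log2 value to 6 decimals, against 16.6% of all genes. Above the background line this was so for 6 of 22 members, or 27.3%, against 13.5% of all genes above it. Mmp1a held 1 value on 5 arrays, and Mmp2, Mmp7, Mmp28, Timp1 and Adamts20 each held 1 value on 3 arrays. For Adamts20 these were the 3 telmisartan arrays, so that its SD there was 0. The reason for the equal values was not tested.

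Mmp7 and Adamts8 were each measured by a second probe set with 1 symbol. The second probe set of Mmp7 had a mean level of 1.53, below the background line, where the brightest had 3.03, and the differences were 0.02 and -0.02. For Adamts8 the means were 2.22 and 2.31, with differences of 0.06 and 0.03.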
